A study of Mus musculus with 12 samples.

Results

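Mouse miR-143 and miR-145, with the miR-199 miRNAs, form a group of 5 miRNAs taken by exact ID from an array table of 710 mouse miRNAs. The members are mmu-miR-143, mmu-miR-145, mmu-miR-199a-3p, mmu-miR-199a-5p and mmu-miR-199b, and all 5 were found. Blood RNA was profiled from 6 mice labelled tff3 KO and 6 labelled wild type, and each genotype comprised 3 female and 3 male animals. Trefoil factor 3, the product of Tff3, is a small secreted peptide of mucous epithelia. The labels call the first group knockouts, whereas the design text of the series speaks of knock-down. The sources used here give neither the strain and age nor the way in which Tff3 was disrupted, and an array of miRNAs does not measure Tff3 itself, so the genotype was taken from the labels alone. Each array came from the pelleted blood of 1 animal, collected in a stabilising tube. The RNA was therefore a mixture from all blood cells and anything else drawn into the tube, and fewer cells of a type cannot be told apart from less RNA per cell.

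A miRNA is a short RNA that lowers the output of messenger RNAs by pairing with them, mainly through its seed, bases 2 to 8 from the 5′ end. miR-143 and miR-145 are cut from 1 primary transcript and are known as markers of smooth muscle, where they favour the contractile state of the cell. They are also found in fibroblasts and other stromal cells. miR-199a is made from 2 loci, 1 of which lies beside miR-214 in the non-coding RNA Dnm3os of developing mesenchyme, and miR-199b from another locus. None of these miRNAs defines a blood cell lineage, and the arrays do not show which cells they came from.

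The miR-199 sequences are shown because 2 of the IDs on the array may refer to the same RNA. They are from RefSeq (GRCm38.p6), written 5′ to 3′ with the seed in capitals.
miR-199a-5p: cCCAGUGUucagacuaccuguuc
miR-199a-3p: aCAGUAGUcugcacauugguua
miR-199b-3p: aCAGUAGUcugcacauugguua
A search of the 1738 mature entries of that table found the seed CAGUAGU at 3 loci and with 1 distinct sequence, so that miR-199a-3p and miR-199b-3p were letter for letter the same. The seed CCAGUGU was found at 2 loci, both of miR-199a-5p. The array's ID mmu-miR-199b carries no arm. RefSeq lists only the 3p arm for this gene, and the array has a separate ID miR-199b*, but no file states which arm the miR-199b probe reads, so its values are given under the ID alone.

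The precursors show where the arms lie. In the next 3 hairpins the listed mature arms are in capitals.
Mir199a-1: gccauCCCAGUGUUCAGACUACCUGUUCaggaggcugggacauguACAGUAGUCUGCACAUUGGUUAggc
Mir199a-2: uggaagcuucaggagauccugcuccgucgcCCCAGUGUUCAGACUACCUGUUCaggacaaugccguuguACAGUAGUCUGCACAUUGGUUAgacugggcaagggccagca
Mir199b: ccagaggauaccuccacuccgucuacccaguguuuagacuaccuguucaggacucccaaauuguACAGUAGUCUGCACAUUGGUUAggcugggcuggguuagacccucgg
Mir199a-1 lies at chr9:21496495-21496564 on the minus strand and overlaps Dnm2. Mir199a-2 lies at chr1:162217814-162217923 on the plus strand and overlaps Dnm3 and the non-coding Dnm3os, as does Mir214. Mir199b lies at chr2:32318460-32318569 on the plus strand and overlaps Dnm1. Dnm1, Dnm2 and Dnm3 encode dynamins, GTPases that pinch vesicles off membranes. In the same RefSeq annotation Mir143 and Mir145a overlap Carmn, the long non-coding RNA that hosts them.

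The deposited values are array intensities on a linear scale, of which 282 (3.31%) lay below 0, the lowest at -64. The sums over all miRNAs were 472963 to 814468 in the tff3 KO arrays and 391740 to 1111471 in the wild-type arrays. The erythroid markers miR-451, miR-144, miR-486, miR-16, miR-15b and miR-210 had summed normalized intensities of 101820 to 140580 in tff3 KO and 96712 to 124172 in wild-type blood, and none was at or below 0 on any array. No 2 arrays held the same values. Knockout 6, a female, stood apart from the other knockouts in 3 of the 5 members, and the genotype results of the members and of the miRNA lists are therefore given with and without it. The wild-type columns of this table carry numbers that the labels do not use, so their sex was taken from a second deposited table of the same arrays, described below where it is used.

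All 5 members gave positive deposited intensities on all 12 arrays, from 24 to 1833. miR-143 had intensities of 128, 276, 60, 148, 108 and 784 in knockouts 1 to 6 and 104, 148, 200, 208, 156 and 276 in the wild-type columns 7 to 12. miR-145 had 88, 228, 44, 144, 180 and 1833 in knockouts 1 to 6 and 76, 200, 156, 168, 92 and 228 in wild types. For both miRNAs knockout 6 was the highest of the 12 arrays and knockout 3 the lowest, and the other 10 arrays of the 2 genotypes overlapped.

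miR-199a-3p had 108, 160, 52, 92, 80 and 132 in knockouts 1 to 6 and 88, 96, 140, 112, 68 and 156 in wild types. miR-199a-5p ranged from 48 to 156 with a median of 74 in tff3 KO and from 44 to 108 with a median of 64 in wild-type blood. miR-199b ranged from 32 to 132 with a median of 78 in tff3 KO and from 24 to 144 with a median of 62 in wild-type blood. The miR-199 intensities of the 2 genotypes thus overlapped, although those of miR-199a-5p reached higher in tff3 KO. No member's groups were separated. The array medians over all miRNAs were 72 to 188 in tff3 KO and 76 to 136 in wild-type blood. No file gives a detection limit, so it is not known which of these signals were above background.

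Levels below are log2 of the quantile-normalized intensity plus 50, a scale on which changes of dim miRNAs are understated. Levels of different miRNAs come from different probes and are not ranked against each other.

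**Figure D1:**
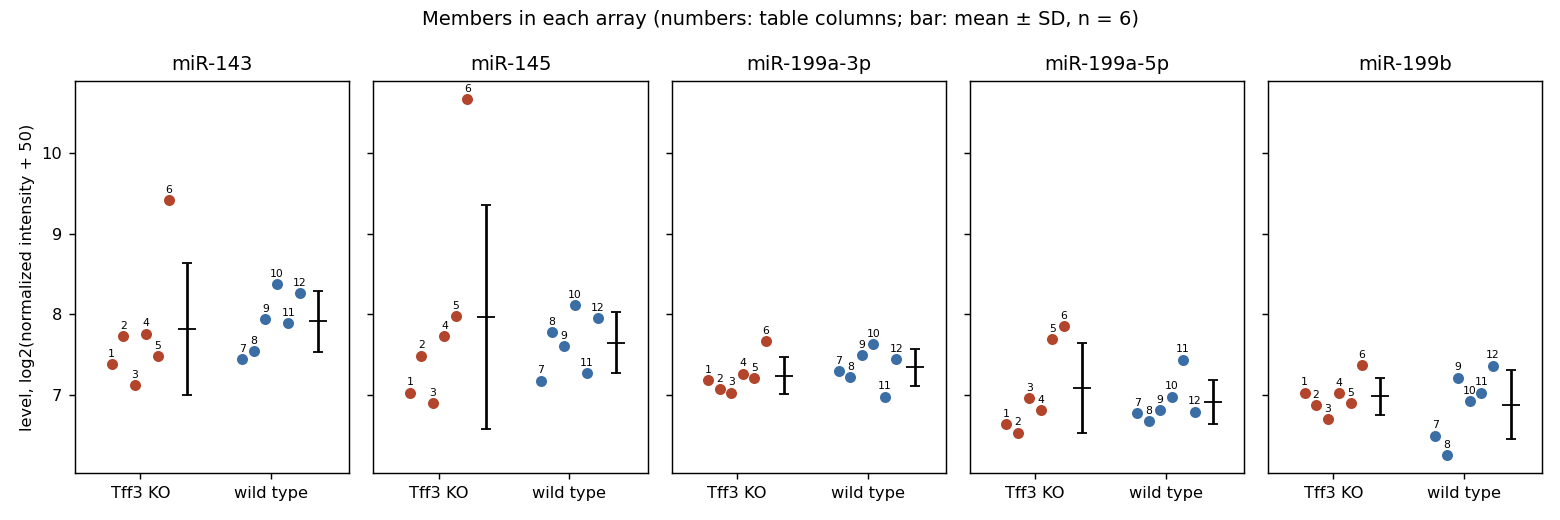
Level (log2 of normalized intensity plus 50) of each member in the 6 tff3 KO arrays (left in each panel, red) and the 6 wild-type arrays (right, blue), each point numbered by its table column, with mean ± SD. Knockout 6 is the highest point for miR-143 (9.42) and miR-145 (10.68), and the other points of the 2 genotypes overlap in every panel.

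The first question was whether loss of Tff3 changes these miRNAs in blood. No member passed the test between genotypes, and their differences were small beside the spread of the animals. miR-143, which represses genes of the cytoskeleton and of dedifferentiation in smooth muscle, had a level of 7.81 ± 0.82 in tff3 KO and 7.91 ± 0.38 in wild-type blood (SD, n = 6 each). The difference was -0.10 (SE 0.31, 95% interval -0.75 to 0.56, limma adjusted p = 0.923), and it was positive, 0.020 to 0.056, under the 3 other scalings. miR-145, which acts with the myocardin programme of smooth muscle, had 7.96 ± 1.39 in tff3 KO and 7.65 ± 0.37 in wild-type blood, a difference of 0.32 (SE 0.47, 95% interval -0.68 to 1.32, limma adjusted p = 0.876). The tff3 KO spread of both miRNAs came largely from knockout 6. Without it the other 5 knockouts had 7.49 ± 0.27 for miR-143 and 7.42 ± 0.46 for miR-145, both differences were negative, -0.41 and -0.22, and the adjusted p values were 0.557 and 0.790.

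The miR-199 miRNAs were as close between genotypes. miR-199a-3p had 7.23 ± 0.23 in tff3 KO and 7.34 ± 0.23 in wild-type blood, a difference of -0.11 (SE 0.16, limma adjusted p = 0.876). miR-199a-5p had 7.08 ± 0.56 in tff3 KO and 6.91 ± 0.28 in wild-type blood, a difference of 0.17 (SE 0.23, limma adjusted p = 0.871). miR-199b had 6.98 ± 0.23 in tff3 KO and 6.88 ± 0.43 in wild-type blood, a difference of 0.10 (SE 0.19, limma adjusted p = 0.889). The 95% intervals were -0.44 to 0.23 for miR-199a-3p, -0.32 to 0.66 for miR-199a-5p and -0.31 to 0.51 for miR-199b, so these arrays do not bound a genotype difference more tightly than that. Rearranging the 12 arrays in every possible way, an exact permutation test (two-sided) gave p from 0.448 for miR-199a-3p to 0.844 for miR-143, unadjusted. Without knockout 6 the differences were -0.19 for miR-199a-3p, 0.02 for miR-199a-5p and 0.02 for miR-199b.

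Over the whole array 0 of 710 miRNAs (0%) passed the adjusted threshold of 0.05 for genotype in limma, and 0 passed in the exact Wilcoxon test. The unadjusted p was under 0.05 for 64 miRNAs in limma and for 53 in the Wilcoxon test, no member among the 64. The 5 members had a median difference of 0.10, with 3 positive and 2 negative, beside a median of -0.0015 and 49.4% positive over all miRNAs. The 2 genotypes did not overlap for 5 of 710 miRNAs (0.704%), and no member was among them.

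**Figure D2:**
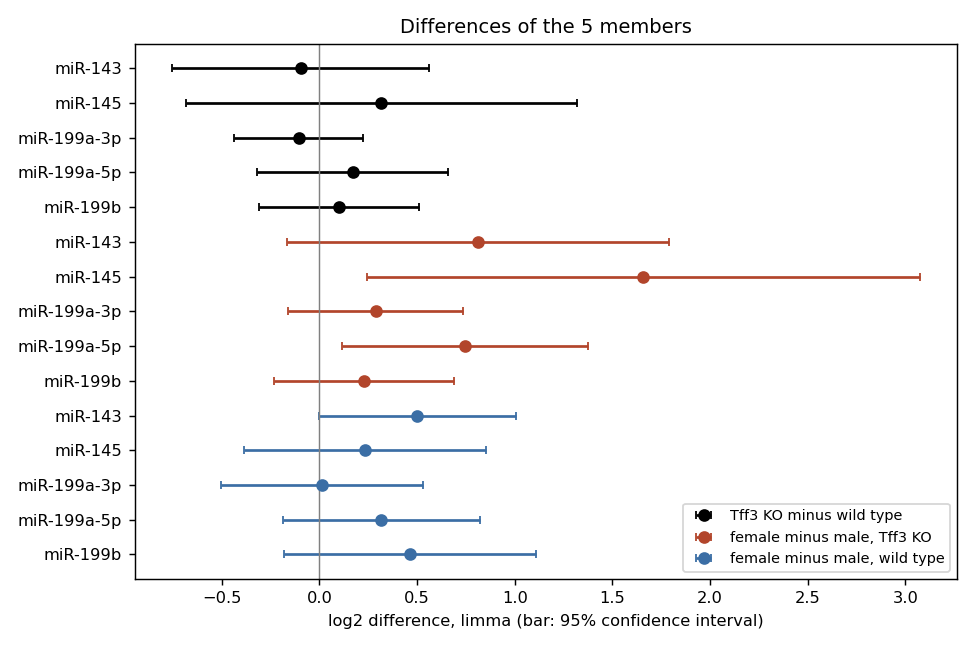
Log2 differences of the 5 members with 95% confidence intervals from limma, from top to bottom for tff3 KO minus wild type (black), female minus male within tff3 KO (red) and female minus male within wild type (blue). All 5 genotype intervals include 0, and the widest interval among the knockout sexes is that of miR-145.

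Knockout 6 carried the largest values of the smooth muscle pair. The comparison of 1 array with the 5 others of its group has no replicate and no test, and it describes this animal only. Its deposited miR-145 intensity of 1833 was 8.04 times the next highest of the 12 arrays and 12.7 times the median of the other 5 knockouts. Its miR-143 intensity of 784 was 2.84 times the next highest array and 6.13 times the median of the other knockouts. On the normalized scale knockout 6 lay above the mean of the other 5 knockouts by 3.25 for miR-145, the second largest such difference of 710 miRNAs, and by 1.93 for miR-143, the fourth largest.

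The miR-199 miRNAs stood out much less in this animal. Knockout 6 lay above the other knockouts by 0.92 for miR-199a-5p, 0.52 for miR-199a-3p and 0.47 for miR-199b, which ranked 17, 56 and 71 of 710. All 5 members were highest of the 6 knockouts in knockout 6, as were 118 of 710 miRNAs (16.6%). For miR-143, miR-145 and miR-199a-3p the gap between knockout 6 and the next knockout passed Dixon's critical share of the group's range, which held for 5 of 710 miRNAs (0.704%). The other 2 were miR-122 and miR-31, named here after their values were seen. For the miR-199 miRNAs this depended on the scaling. With 75th-percentile scaling miR-199a-3p lost the gap. Without normalization only 3 members, miR-143, miR-145 and miR-199a-5p, were highest of the knockouts in knockout 6, and only miR-145 kept the gap.

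**Figure D3:**
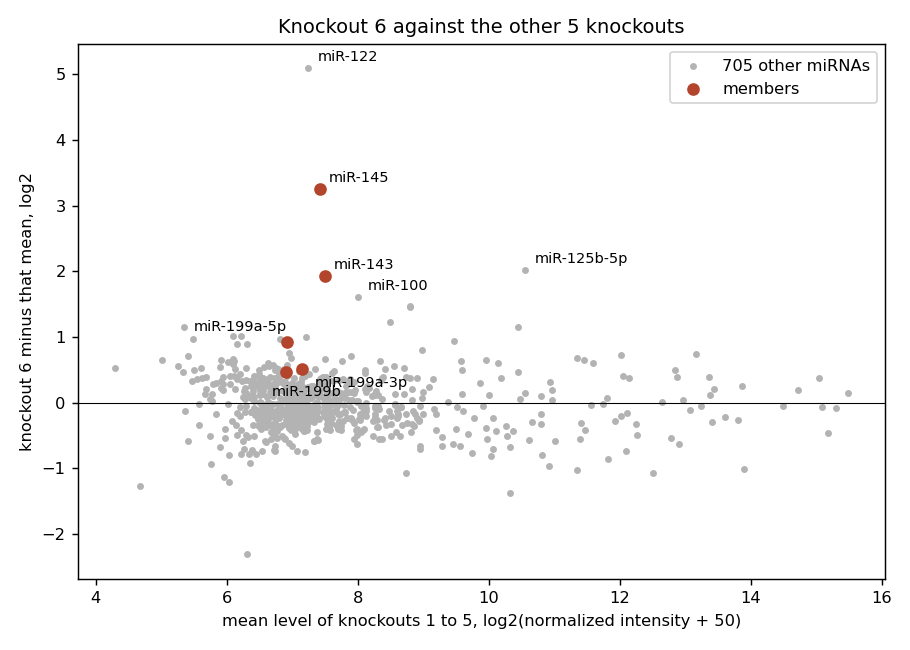
Difference between knockout 6 and the mean of the other 5 knockouts (log2, vertical) against that mean level (horizontal) for all 710 miRNAs, with the 5 members in red. miR-145 (3.25) and miR-143 (1.93) lie far above the cloud, below and beside miR-122, miR-125b-5p and miR-100, while the 3 miR-199 miRNAs lie at 0.47 to 0.92.

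Other miRNAs of the stromal list were high in the same animal, though not all of them, and so were some outside the list. miR-125b-5p, miR-100 and miR-99a, which come from 2 related clusters and are abundant in mesenchymal cells, lay above the other knockouts by 2.02, 1.61 and 1.48. Their deposited intensities in knockout 6 were 4.65, 4.36 and 4.18 times the medians of the other knockouts. The related miR-125a-5p, miR-99b and miR-10a are not in the stromal list and lay above the other knockouts by 1.45, 1.23 and 1.01. Of these, miR-99b and miR-10a were named after their values were seen. The listed miR-10b lay 0.51 above. Whether probes of related miRNAs read the same RNA was not tested. miR-214, the neighbour of miR-199a-2, differed by 0.07. miR-145*, the other strand of the miR-145 hairpin, differed by 0.23 and had an intensity of 104 in knockout 6, against 28 to 236 in the other knockouts. The star strand of miR-145 thus did not share the high value of miR-145. Of the 12 stromal miRNAs listed beside the members, 6 were highest of the knockouts in knockout 6, beside 118 of all 710 miRNAs (16.6%). The summed normalized intensity of the 12 was 12644 there, against 5321 to 8975 in the other knockouts. Bright probes weigh most in this sum, and miR-125b-5p had a level of 12.58 in knockout 6. Others of the list were lower there, with differences of -0.30 for miR-195, -0.23 for miR-503 and -0.03 for miR-497.

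Of the markers of other tissues, those of hepatocytes were high in knockout 6. The sums of the striated muscle and of the epithelial miRNAs were within the range of the other knockouts. The largest difference of knockout 6 was that of miR-122, the main miRNA of hepatocytes, at 5.09 above the other knockouts. Both hepatocyte miRNAs, miR-122 and miR-192, were highest of the knockouts there, neither was at or below 0 on any array, and their sum was 8149, against 1054 to 1961 in the other knockouts. The sum in wild types ran from 1194 to 11695, so the high hepatocyte sum of knockout 6 lay within the wild-type range, whereas its miR-143 and miR-145 did not. The 5 skeletal and heart muscle miRNAs summed to 1088 in knockout 6, against 380 to 1366 in the other knockouts, with 2 of the 5 at or below 0 on some array. The 6 epithelial miRNAs summed to 1359, against 1145 to 1651, with 1 of the 6 at or below 0 on some array. Single miRNAs of these 2 lists were higher. In knockout 6, 1 of the 5 muscle and 2 of the 6 epithelial miRNAs were highest of the knockouts, as were 118 of 710 miRNAs (16.6%). Named after their values were seen, miR-206 lay 0.97 and miR-203 0.76 above the mean of the other knockouts. Among the blood cell lists, the erythroid sum of knockout 6 was the lowest of the knockouts, at 101820 against 104887 to 140580. Its myeloid and lymphocyte sums were the highest, at 10079 against 6142 to 9039 and at 6200 against 2016 to 6083, and its platelet sum of 6801 lay within 5534 to 7942. The part of these tissues and cells in the miR-143 and miR-145 values was not tested.

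All pairs of members had a positive Pearson's r over the 12 arrays. The values ran from 0.22 for the 2 arms of miR-199a to 0.90 for miR-143 with miR-145. For miR-145, r was 0.70 with miR-199a-3p and 0.64 with miR-199a-5p, and for miR-143 with miR-199b it was 0.64. Without knockout 6 these were 0.65, 0.20 and 0.56. No detection limit is given, so a low r of the miR-199 IDs does not show that profiles differ. For the nearest miRNAs, r was computed between the levels of each member and all other miRNAs at or above the median mean level. It is a description over 12 arrays that share 1 normalization, and not a test. Over all pairs among these 355 miRNAs, the median r was -0.0032, the 95th percentile 0.63 and the 99th 0.79. The nearest miRNAs are the highest of 354 or 355 compared, so these percentiles of single pairs are no measure for them. miR-143 was nearest to miR-145 (r = 0.90, Spearman's rho 0.75), then to miR-100 (r = 0.88) and miR-125b-5p (r = 0.82). miR-145 was nearest to miR-143, then to miR-100 (r = 0.89) and miR-125b-5p (r = 0.85).

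Much of this likeness rested on knockout 6. Without that array r of miR-143 and miR-145 was 0.70, and without the 2 arrays farthest from the median of miR-143 it was 0.60 over 10 arrays. Among the 11 arrays miR-145 ranked 17 by r with miR-143, and miR-214 was nearest at r = 0.83, whose r with all 12 arrays was 0.42. Among the 11 arrays miR-145 was nearest to miR-100, at r = 0.78, and miR-143 ranked 6.

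The nearest miRNAs of the miR-199 members differed in part from those of miR-143 and miR-145. miR-199a-3p was nearest to miR-1955 (r = 0.81), miR-100 (0.79) and miR-143 (0.77), and r with miR-143 was 0.68 without knockout 6. miR-199a-5p was nearest to miR-125a-5p (r = 0.86), miR-99a (0.79) and miR-1897-5p (0.74), and its r with miR-143 was 0.50 over 12 arrays and -0.0016 without knockout 6. miR-199b was nearest to miR-742 (r = 0.90), miR-1962 (0.78) and miR-467d (0.76), none of them a stromal miRNA of the list. The first of these was 0.84 without wild-type column 8, in which miR-199b was lowest.

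The 2 arms of miR-199a, cut from the same hairpins shown above, had r = 0.22 over 12 arrays and -0.17 without knockout 6. miR-199a-3p and miR-199b had r = 0.45, and 0.29 without knockout 6, although the listed 3p sequences of both genes are the same. Against that, miR-199a-5p and miR-199b* had r = 0.85, and 0.80 without knockout 6. With the arm of the miR-199b probe unstated, these values do not show whether the 2 probes read the same RNA. miR-199b* lies below the median level and was not among the miRNAs compared above.

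**Figure D4:**
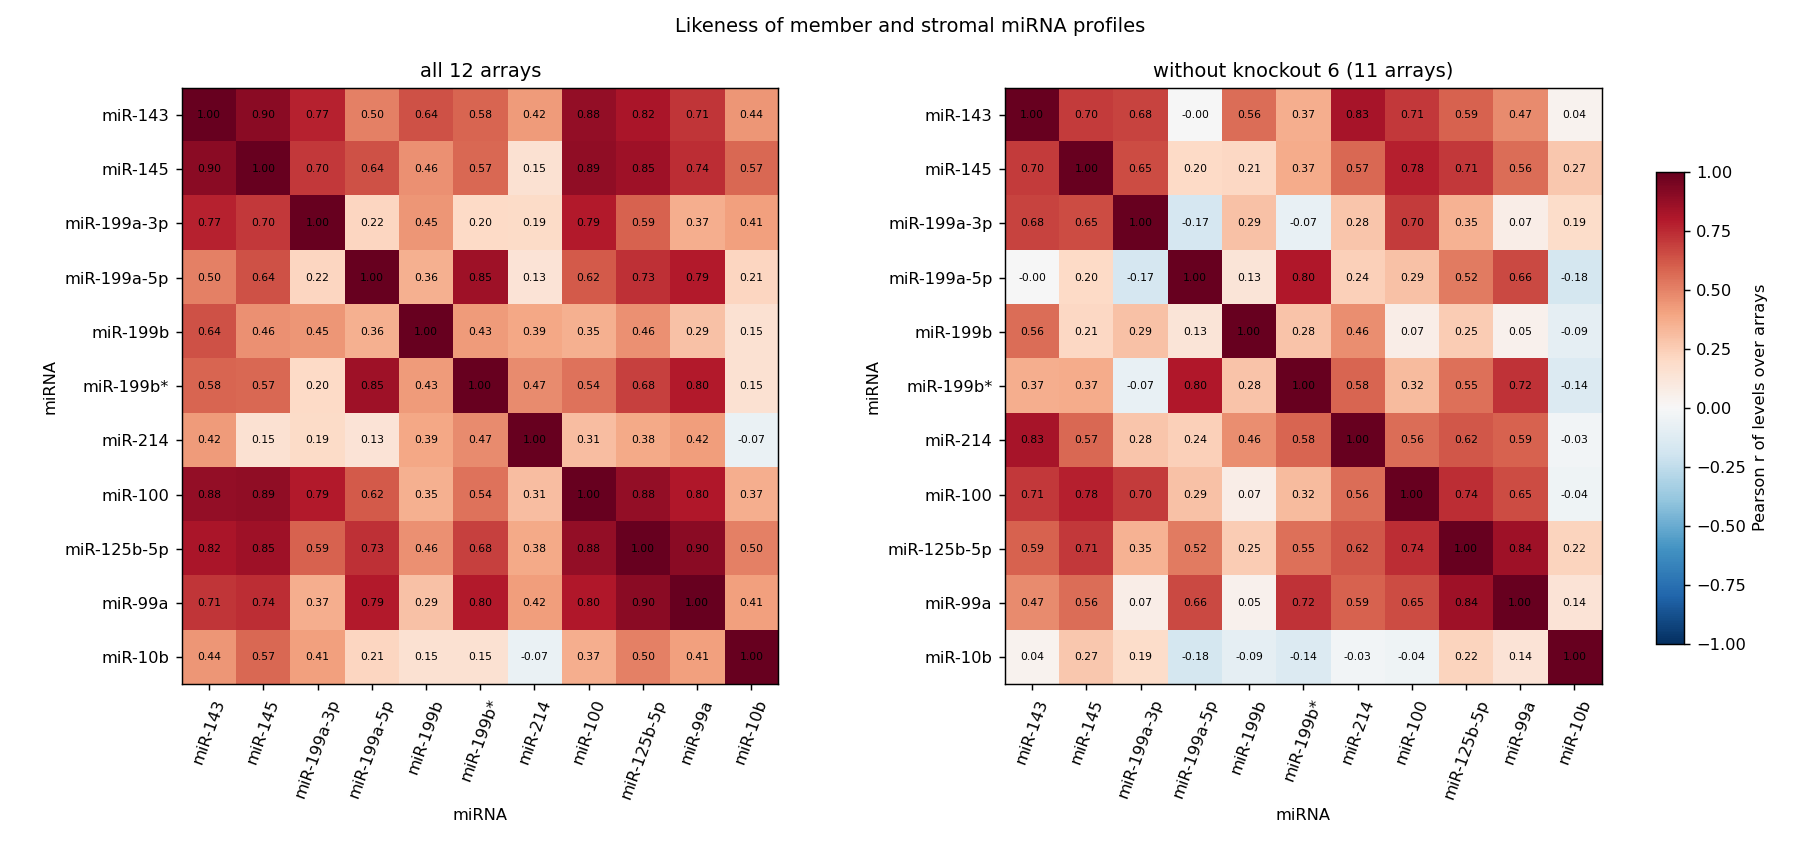
Pearson's r between the levels of the 5 members and 6 other miRNAs over all 12 arrays (left) and without knockout 6 (right), with each r printed in its cell. miR-143 and miR-145 have r = 0.90 on the left and 0.70 on the right, and miR-199a-5p with miR-143 goes to a value near 0 on the right.

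The other miRNAs of the same tissues were read from 2 lists. Of 12 stromal miRNAs, 0 passed the test for genotype, 5 differences were positive and 7 negative, and the median was -0.04. The 4 named by their bright probes, which does not rank their abundance, were miR-195 (difference -0.31, SE 0.20), miR-125b-5p (0.07, SE 0.38), miR-214 (-0.28, SE 0.17) and miR-99a (-0.06, SE 0.32). Without knockout 6, a setting added for the lists after the data were seen, there were 4 positive and 8 negative differences with a median of -0.20. That of miR-125b-5p turned to -0.27 (SE 0.29), that of miR-99a was -0.30 (SE 0.26), and those of miR-195 and miR-214 were -0.26 and -0.28. Again 0 passed the limma test, with a lowest adjusted p of 0.347. miR-195 shares its seed family with miR-16 and restrains the cell cycle. In this list miR-335-5p, named after its values were seen, had groups that did not overlap, as held for 5 of 710 miRNAs (0.704%). Its level was 7.84 ± 0.14 in tff3 KO and 7.49 ± 0.09 in wild-type blood (SD, n = 6 each), with a limma adjusted p of 0.405. Its difference was 0.35, and 0.32 without knockout 6 (limma adjusted p = 0.455).

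Of 12 miRNAs that are known to act on the phenotype of smooth muscle, 0 passed the test, 9 differences were positive and 3 negative, and the median was 0.10. Named by the same rule were miR-22 (difference 0.26, SE 0.15), miR-26a (0.12, SE 0.23), miR-24 (-0.05, SE 0.18) and miR-21 (0.09, SE 0.18). miR-21 and miR-24 are known for effects on growth of vascular smooth muscle. Without knockout 6 the list had 8 positive and 4 negative differences with a median of 0.09, and the same 4 miRNAs had 0.25, 0.23, -0.06 and 0.19. Neither list held a miRNA called for genotype, with or without that array.

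The labels also give the sex of each animal, and 3 female and 3 male mice of each genotype allow a second comparison. All 5 members had higher means in females in both genotypes after quantile normalization (without it, miR-199a-3p and miR-199b did not among the knockouts), but no member passed the test. In both genotypes the label numbers 1 to 3 are males and 4 to 6 females, so sex and whatever else follows that order cannot be told apart. With 3 against 3 an exact two-sided permutation test cannot go below p = 0.1, so only the fit across all miRNAs is given.

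Among the knockouts, miR-145 had a level of 8.79 ± 1.63 in the 3 females and 7.14 ± 0.31 in the 3 males (mean ± SD). The difference was 1.66 (SE 0.64, limma adjusted p = 0.580), and the lowest female lay above the highest male. Without knockout 6 it was 0.72. miR-199a-5p had 7.45 ± 0.56 in females and 6.70 ± 0.22 in males, a difference of 0.75 (SE 0.28, limma adjusted p = 0.580), and the sexes overlapped. Without knockout 6 it was 0.55. miR-143 had 8.22 ± 1.05 in females and 7.41 ± 0.31 in males, a difference of 0.81 (SE 0.44, limma adjusted p = 0.761), which was 0.21 without knockout 6.

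The remaining differences among the knockouts were 0.29 (SE 0.20) for miR-199a-3p and 0.23 (SE 0.21) for miR-199b. Females lay above males without overlap for miR-145 and miR-199a-3p, as they did for 41 of 710 miRNAs (5.77%). In the limma fit 0 of 710 (0%) passed the adjusted threshold for sex among knockouts, and 53 had an unadjusted p under 0.05, miR-145 and miR-199a-5p among them. The median difference over all miRNAs was -0.04, with 44.5% positive. Without normalization miR-145 passed the threshold, with a difference of 1.51 and an adjusted p of 0.037, and the differences of miR-199a-3p and miR-199b were negative, -0.0035 and -0.08.

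The wild types were compared in the authors' value table, which ties each column to a labelled animal. miR-143 had a level of 8.11 ± 0.24 in the 3 females and 7.60 ± 0.24 in the 3 males (mean ± SD), a difference of 0.50 (SE 0.22, limma adjusted p = 0.465). Its 3 wild-type females had normalized intensities of 263.5, 179 and 240.5, and its males had 121.5, 132 and 185.5. The lowest female thus lay just below the highest male. miR-199b differed by 0.46 (SE 0.28), miR-199a-5p by 0.32 (SE 0.22), miR-145 by 0.23 (SE 0.27) and miR-199a-3p by 0.01 (SE 0.23).

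No member separated the sexes in wild types, where 56 of 710 miRNAs (7.89%) had all females above all males. The threshold was passed by 1 of 710 miRNAs (0.141%), miR-122, which was 4.17 higher in wild-type females (SE 0.43, limma adjusted p = 0.0050). The median difference over all miRNAs in wild types was 0.01, with 52.1% positive.

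**Figure D5:**
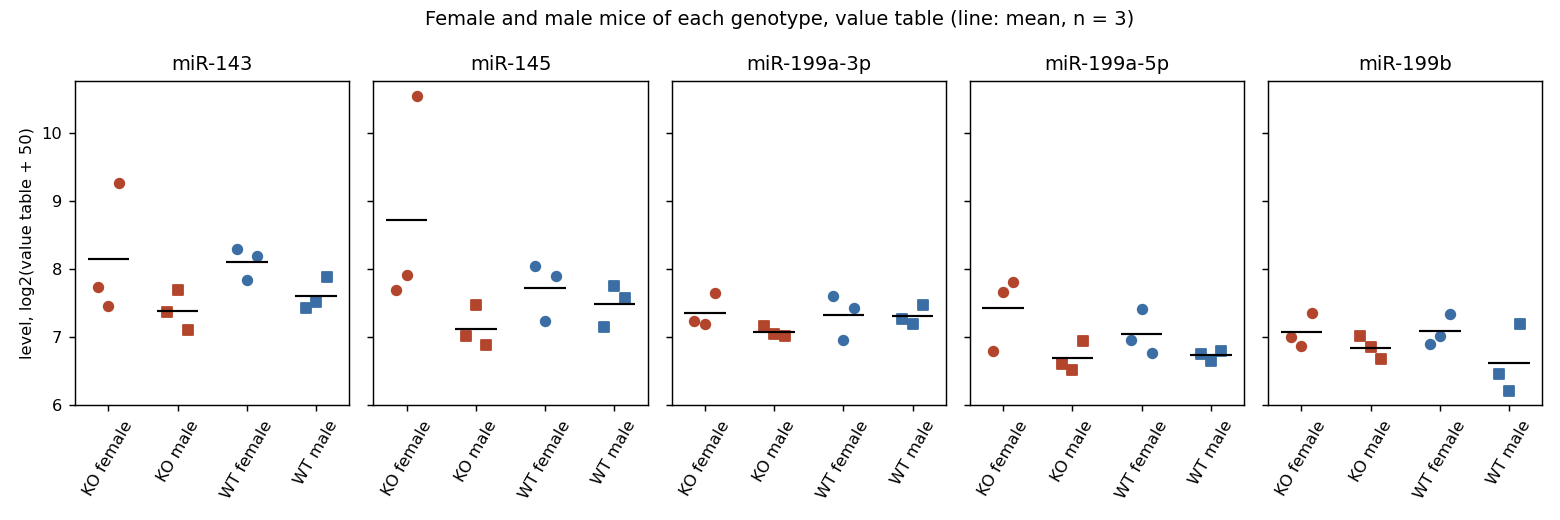
Level (log2 of the authors' value table plus 50) of each member in female (circles) and male (squares) mice, tff3 KO in red and wild type in blue, with the mean of 3 animals as a line. In this normalized table the female mean is above the male mean in each of the 10 pairs, and most pairs overlap.

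Fitted over both genotypes, with genotype as a covariate, the female minus male differences were 0.92 for miR-145, 0.63 for miR-143, 0.53 for miR-199a-5p, 0.35 for miR-199b and 0.15 for miR-199a-3p. This fit was added after the data were seen. For miR-143, miR-145 and miR-199a-5p the unadjusted limma p was under 0.05, at 0.026, 0.047 and 0.013, and the adjusted p values were 0.317, 0.384 and 0.290. Here too miR-122 was the 1 miRNA of 710 (0.141%) past the threshold. Without knockout 6 the differences of the same 3 members were 0.37, 0.44 and 0.42.

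The sex difference of a member was not shown to depend on genotype. The interaction, the female minus male difference in tff3 KO less that in wild type, was 1.37 for miR-145 (SE 0.79, limma adjusted p = 0.679) and 0.45 without knockout 6. It was 0.26 for miR-143 and -0.30 without knockout 6. The other 3 members lay between -0.23 and 0.42, and 0 of 710 miRNAs (0%) passed the interaction threshold, with 42 under an unadjusted p of 0.05.

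Summed markers of other cell types also differed between the sexes by their ranges, in both directions. The 12 stromal miRNAs had 10 positive differences among the knockouts (median 0.24) and 9 among the wild types (median 0.37), none of them past the threshold. Their summed value-table intensities were 7742 to 11204 in females and 4884 to 6165 in males among the knockouts. Among the wild types they were 7500 to 8706 in females and 5257 to 7391 in males, so that the sexes did not overlap in either genotype. Bright probes weigh most in this sum. Of single miRNAs, 41 of 710 (5.77%) among the knockouts and 56 of 710 (7.89%) among the wild types had all females above all males. The hepatocyte sum was 4753 to 10027 in females and 1099 to 1256 in males among wild types. Among the knockouts it was 1411 to 6990 in females and 969 to 1576 in males. The platelet sum was 5965 to 6907 in females and 4908 to 5911 in males among the knockouts, and 5777 to 7488 in females and 4289 to 5878 in males among wild types. The skeletal and heart muscle sum was 999 to 1242 in females and 369 to 878 in males among the knockouts, and 378 to 799 in females and 524 to 841 in males among wild types, where the sexes overlapped and the females were lower at both ends. The lymphocyte sum was 4064 to 5320 in females and 1847 to 3980 in males among the knockouts, and 3914 to 5524 in females and 3160 to 4674 in males among wild types. The erythroid sum was lower at both ends in females, at 89694 to 105469 against 93304 to 125424 in males among the knockouts and at 86062 to 93002 against 88422 to 109871 in males among wild types. The myeloid sum was 6679 to 8950 in females and 5536 to 7479 in males among the knockouts, and 6543 to 7500 in females and 6047 to 15255 in males among wild types. For the epithelial sum the female range lay inside the male range in both genotypes. It was 1260 to 1343 against 1058 to 1529 among the knockouts, and 1347 to 1730 against 1155 to 1975 among wild types. The sums of the miRNAs tied to smooth muscle phenotype overlapped in both genotypes. The part of these cells and tissues in the values of the members was not tested.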

How the data were processed

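Blood miRNA was measured in 6 tff3 KO and 6 wild-type mice on biotin-labelled arrays, with a microfluidic primer extension assay per the labels. The authors deposited a linear intensity table, and its values below 0 show that something was subtracted. The sources used here do not name the scanner, the background method or the miRBase release. A second deposited table holds normalized intensities by labelled animal; each of its columns matched 1 array of the first (Spearman's rho at least 0.99997, next best at most 0.952), in the same direction, without gene centring and on a linear scale, quantile-normalized, with a floor of 1. Its column medians were 101.2, 102.8, 104, 100.8, 100.75 and 101.4 for tff3 KO 1 to 6 and 103.8, 100.7, 99.9, 99.7, 101 and 103.9 for wild types 1 to 6.

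Columns of the first table named for a knockout were tied to the labels by number. Its wild-type columns could not be tied by number. The match of values given above was not used to assign their sex, and they served as 6 wild types without sex. Sex in wild types, both-genotype fits and the interaction used the second table.

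Intensities of all 12 arrays were quantile-normalized and transformed to log2(value + 50), and the second table was transformed likewise without further normalization. Differences were tested with limma 3.58.1 (lmFit and eBayes) in R 4.3.3, with two-sided p values adjusted by Benjamini-Hochberg across the 710 miRNAs and called under 0.05, and the fit was tested on simulated data. The number of arrays limits the precision, and each array is 1 animal. Alternatives were 75th-percentile scaling, cyclic loess or no normalization, offsets of 1 and 200, a filter on dim miRNAs, array weights, trended robust variance, an exact Wilcoxon test, the second table, sex or the label number in the model, and leaving out each array.

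The miRNAs named are the members, their star strands and miR-214, the 3 nearest of each member by Pearson's r among miRNAs at or above the median mean level, and up to 4 of each list with the highest level or past the threshold. The members, lists and rules were chosen with earlier results of these data known. Figures used matplotlib 3.10.9 in Python 3.11.15.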

Additional observations from a re-analysis of the deposited data

Results flagged for a closer look

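Of 36 groups of 6 arrays, for the members, their neighbours and the marker lists, 6 (16.7%) had an array that stood apart. Its gap to the nearest passed Dixon's 95% critical share of the group's range. The groups share arrays and were chosen with earlier results of these data known, so this share is not set against chance. The flagged values are the distances on the log2 scale from the mean of the other 5 knockouts. Knockout 6 lay 3.25 above for miR-145, 1.93 for miR-143 and 0.52 for miR-199a-3p, and its mean level over the 2 hepatocyte miRNAs lay 3.12 above. For miR-145*, knockout 5 was the low one, at -0.89, and for miR-214 it was knockout 3, at -0.62. All 6 are in the tff3 KO group and none in the wild-type group.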

How the results depend on the processing

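No genotype or interaction value of a member passed the threshold under any alternative, and for sex only miR-145 did, once. The genotype difference of miR-143 was 0.022 with 75th-percentile scaling, 0.020 with cyclic loess and 0.056 without normalization, against -0.10; the cause was not tested. Leaving out 1 array at a time, it ran from -0.41 (without knockout 6) to 0.043 (without knockout 3), that of miR-145 from -0.22 to 0.53 (-0.22 without knockout 6) and that of miR-199b from -0.023 (without wild-type column 8) to 0.19. The number of miRNAs called for genotype was 0 to 1, the 1 without wild-type column 12. Without normalization the sex differences in tff3 KO were 1.51 for miR-145 (adjusted p = 0.037), -0.0035 for miR-199a-3p and -0.076 for miR-199b. In tff3 KO 3 miRNAs were called for sex without normalization, 2 with an offset of 1 and 1 with trended robust variance. Leaving out arrays, miR-199a-3p in wild types ran from -0.13 to 0.20, the count called for sex in wild types from 1 to 3 (3 without wild type 3) and over both genotypes from 0 to 5 (5 without knockout 3, 0 without knockout 1 or 2 or any wild type). The interaction of miR-143 ran from -0.30 (without knockout 6) to 0.61. The count of unadjusted genotype p under 0.05 was 39 with 75th-percentile scaling and 19 without normalization. For sex, the exact Wilcoxon test was run only among the knockouts, where 3 against 3 cannot pass. With the label number as a replicate block in the value table, the genotype differences of miR-143, miR-145, miR-199a-3p, miR-199a-5p and miR-199b were -0.09, 0.31, -0.10, 0.16 and 0.11, 0 miRNAs were called and 72 had an unadjusted p under 0.05. Same-numbered samples correlated at -0.12 to 0.18, over 0.1 in 2 of 6, and 2 of 6 correlated best with their own number. These values do not show a pairing by number, and whether anything else follows the number was not tested.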
